A study of Mus musculus with 6 samples.

Results

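Cytosolic ribosomal proteins, the protein part of the machine that translates messenger RNA, were followed in mouse liver as a group of genes. Members were genes with a symbol of Rpl (large subunit) or Rps (small subunit) plus a number and at most 1 letter (a, x, y or l), together with Rplp0, Rplp1, Rplp2 and Rpsa. Of 83 such symbols in the RefSeq gene table, 82 were on the array (50 large and 32 small), among 20659 named genes in all. A filter for dim probes kept those marked well above background on 3 or more of 6 arrays. It left 79 members (47 large and 32 small) among 14805 genes tested, and all 79 were well above background on all 6 arrays. The 3 members left out were Rpl3l, Rpl10l and Rpl39l, paralogues with their own account below.

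Liver RNA came from male mice of the outbred ICR stock that weighed 18 to 22 g. Controls received saline and the treated group received DECB, a deproteinized extract of calf blood, both given intragastrically each day for 35 d, at a dose of 0.08 mL for every 20 g of mouse. The labels describe 24 mice, 12 per group, and a closed-container test of hypoxia tolerance in both groups, without saying whether livers were taken before or after it. There were 3 control arrays (control 1, 2 and 3) and 3 DECB arrays (DECB 4, 5 and 6). The sample descriptions give 1 d for controls and 30 d for DECB, in conflict with the 35 d given elsewhere. The labels do not say that each array had its own mouse, and the p-values therefore reflect spread among samples that may be technical. The study asked how DECB acts on energy metabolism in mice under acute hypoxia, and the comparison here asked whether the ribosomal protein messages differed with DECB and whether the subunits differed from each other.

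As background, each ribosome carries a single copy of most of these proteins, so their messages are made in abundance and held in balance. Many of them begin with a cytosine followed by a run of pyrimidines, the terminal oligopyrimidine (TOP) tract, through which mTOR signalling and Larp1 set how actively the messages are translated and stored. Liver makes large amounts of plasma protein and keeps a dense store of ribosomes. An array of total messenger RNA measures the amount of message and not its translation.

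RefSeq's GRCm38.p6 promoter table holds 73 starts of 61 members, and a minority of these annotated starts carry that tract. A C at the start followed by 4 or more C or T stood at 14 starts (19.2%), in 8 large and 6 small subunit genes, against 2.51% of 32851 starts in all. The sequences below belong to members whose values are given later and show the tract in genes of both subunits. Each runs 5′ to 3′ from 15 bases before the annotated start, with the tract from the start onwards in capitals.
Rps6: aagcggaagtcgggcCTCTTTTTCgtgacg
Rps18: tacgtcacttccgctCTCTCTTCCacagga
Rps27: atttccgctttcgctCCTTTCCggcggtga
Rps21: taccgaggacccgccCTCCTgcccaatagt
Rpl35a: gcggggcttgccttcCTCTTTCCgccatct
Rpl35: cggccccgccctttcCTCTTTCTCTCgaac
Rplp2: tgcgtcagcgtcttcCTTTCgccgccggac

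These lie at chr4:86857353-86857382 on the minus strand (Rps6), chr17:33955651-33955680 minus (Rps18), chr3:90213634-90213663 minus (Rps27) and chr2:180257364-180257393 plus (Rps21). Rpl35a is at chr16:33056467-33056496 plus, Rpl35 at chr2:39005117-39005146 minus and Rplp2 at chr7:141447636-141447665 plus. Each window ends in the first bases of the transcript's 5′ untranslated exon as RefSeq places it. The tract of Rpl35 is the longest of these, at 11 bases, and those of Rplp2 and Rps21 are the shortest, at 5. Other short words were counted on both strands over 250 bases before to 50 after the start, with overlaps between words allowed. The word CCGGAAG, of the kind that ETS factors bind, was in 35.6% of the member starts and in 8.86% of all starts. GGGCGG, an Sp1-type word, was in 57.5% against 35.7%, and AANATGGC, a YY1-type word, in 20.5% against 6.05%. TATAA was in 24.7% of member starts and 24.9% of all. A match is a description of the letters and not of binding.

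The arrays differed in brightness along the scan, here the arrays that share a scan date and time in the file headers. Scan 1 held control 1 and DECB 6, scan 2 held controls 2 and 3 and DECB 4, and scan 3 held DECB 5 alone. The 75th percentile of signal was 3.75 and 4.04 times the local background on scan 1 and 25 to 30.6 times on the other arrays. All values are log2 signal relative to that percentile on the same array. All 9 hepatocyte markers were well above background on every array. The median difference, DECB minus control, was -0.28 over the hepatocyte markers and -0.93 over 4 erythroid markers, with 0 of the former and 2 of the latter at an unadjusted p under 0.05 in limma and none called. Within the erythroid list, Hbb-bt, a beta globin, differed by -2.29 (limma adjusted p = 0.139) and Hba-a1, an alpha globin, by -1.73 (limma adjusted p = 0.191). The other 2 did not share this: Alas2, the erythroid enzyme of heme synthesis, differed by 0.88 and Slc4a1, the red cell anion exchanger, by -0.13. Over Kupffer, endothelial and stellate cell markers the medians were -0.36, -0.33 and -0.22. Over 3 of 5 cholangiocyte markers the median was 0.76 and over 7 of 9 lymphocyte markers 0.07, with none called in any of these lists. Unadjusted p under 0.05 in limma occurred in the stellate, cholangiocyte and lymphocyte lists. Only 1 of the 3 cholangiocyte markers was well above background on all arrays. Their median is the value of a dim probe, well above background on 4 arrays, which was 0.25 with normexp. With scan as a block limma called 1 marker of these lists, Stab2, an endothelial scavenger receptor, lower in DECB (difference -1.05, limma adjusted p = 0.0463). In that fit 3.94% of all genes were called lower, and the other endothelial markers differed by -0.23 to 0.21, on both sides of 0. The part of these cell types in the values below was not tested, and fewer cells of a type cannot be told apart from less RNA per cell.

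Most ribosomal protein messages were bright on every array, and their median level followed the scan. Of 171 probes for members, 90.6% were well above background on all 6 arrays, against 36.0% of all probes. With each gene set relative to its own mean over the 6 arrays, the median member stood at 0.41 on control 1, -0.01 on control 2, -0.14 on control 3, -0.18 on DECB 4, -0.34 on DECB 5 and 0.26 on DECB 6. The 2 scan 1 arrays, 1 of each group, were the highest, and the groups overlapped. Not every member shared this pattern: 19 of 79 had a negative correlation with the rest of the members over the 6 arrays. Under quantile scaling the scan 1 arrays were again the highest, at 0.18 and 0.21, but with normexp background correction they were the lowest, at -0.12 and -0.17, against -0.07 to 0.23 on the others. Scan 1 was therefore highest or lowest under each of these settings, though under normexp DECB 5, at -0.07, lay close to it. The side turned with the normexp setting, which adds an offset of 50 to the signal. The 75th percentile of processed signal was 78.8 and 84.8 on scan 1 and 422 to 551 on the other arrays. The part of the offset in the turn was not tested. The same medians over all genes ran from -0.090 to 0.13 without normexp. With it they ran from -0.19 to 0.34 and scan 1 was the highest, opposite to the members. In groups, the member medians were 0.09 ± 0.29 in controls and -0.09 ± 0.31 in DECB (SD, n = 3), a gap smaller than either SD.

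**Figure D1:**
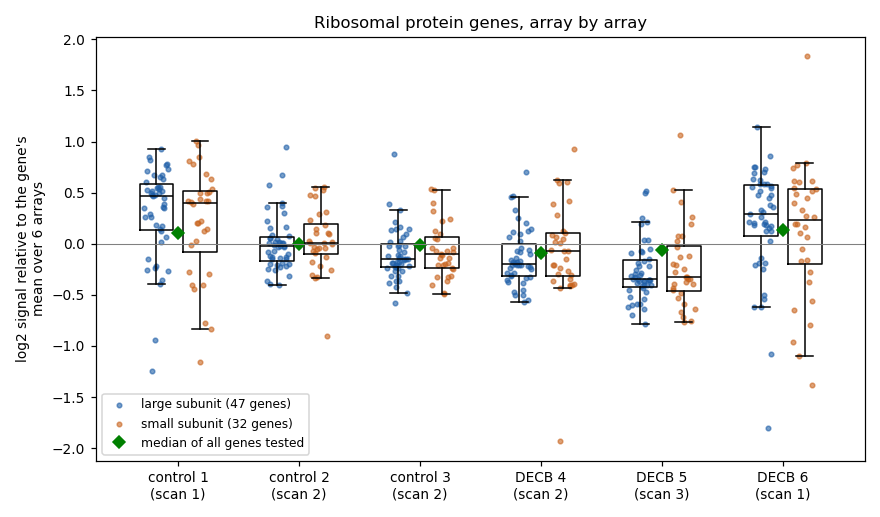
Log2 signal of each large subunit (blue) and small subunit (orange) gene on each array, relative to the gene's own mean over the 6 arrays, with boxes from quartile to quartile, a line at the median, whiskers to the farthest gene within 1.5 box heights, and a diamond at the median of all genes tested. The medians of both subunits stand highest on control 1 and DECB 6, the 2 arrays of scan 1, and lowest on DECB 5. With normexp background correction the same 2 arrays stand lowest instead.

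No ribosomal protein gene passed the test for a difference between DECB and control. limma called 0 of 79 members (Benjamini-Hochberg adjusted p under 0.05 over all genes), against a background of 0.209% of all genes called higher and 0.257% called lower. At an unadjusted p under 0.05 there were also 0 members, against 10.0% of all genes. The smallest adjusted p of a member was 0.538, for Rps6. With scan as a block limma again called 0 members, against 2.74% of all genes higher and 3.94% lower, and 1 member, Rps6, was at an unadjusted p under 0.05, against 28.8% of all genes. DECB 5, alone on its scan, adds nothing to the contrast in the blocked fit. A difference of over 1 in log2 in either direction was seen in 0 of 79 members and in 8.71% of all genes.

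Small differences leaned below 0. The median over members was -0.15 and 64 of 79 were below 0 (81.0%), against a median of -0.027 over all genes with a background of 52.5% below 0. Under quantile scaling between arrays the sign turned: the median was 0.06 and 30 of 79 were below 0. Without control 1 the median was 0.001, and without DECB 5 it was -0.03. With scan as a block it was -0.09, within scan 1 it was -0.10, and within scan 2 it was -0.08. Much of this was shared by genes in general. Taken relative to the median of all genes, the same values were -0.046, -0.048 and -0.020. The members' median stayed below 0 with normexp (-0.13), median scaling (-0.12), probes averaged (-0.13) and without scan 1 (-0.16). The direction therefore turned with quantile scaling and, narrowly, without control 1, and the size rested on single arrays. In size, the median difference without its sign was 0.153 for members and 0.308 for all genes. The 2 sets were unlike in brightness: all 79 members were well above background on all 6 arrays, against 9337 of 14805 genes tested. The part of brightness in this gap was not tested.

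The intervals show how far the data limit a difference. The 95% interval of the limma fit lay inside -1 to 1 in log2 for 36 of 79 members (45.6%), against 21.3% of all genes. This count depended on the fit: it was 78 with scan as a block (60.7% of all genes), 58 with normexp, 73 without scan 1, 9 with controls 2 and 3 averaged, and 6 to 29 with an array left out. The widest reach was down to -2.38 for Rpl4 and up to 2.84 for Rps4l. The median SE was 0.36 for members and 0.395 for all genes, dim ones included. Missing the threshold does not show that a message was the same in both groups.

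**Figure D2:**
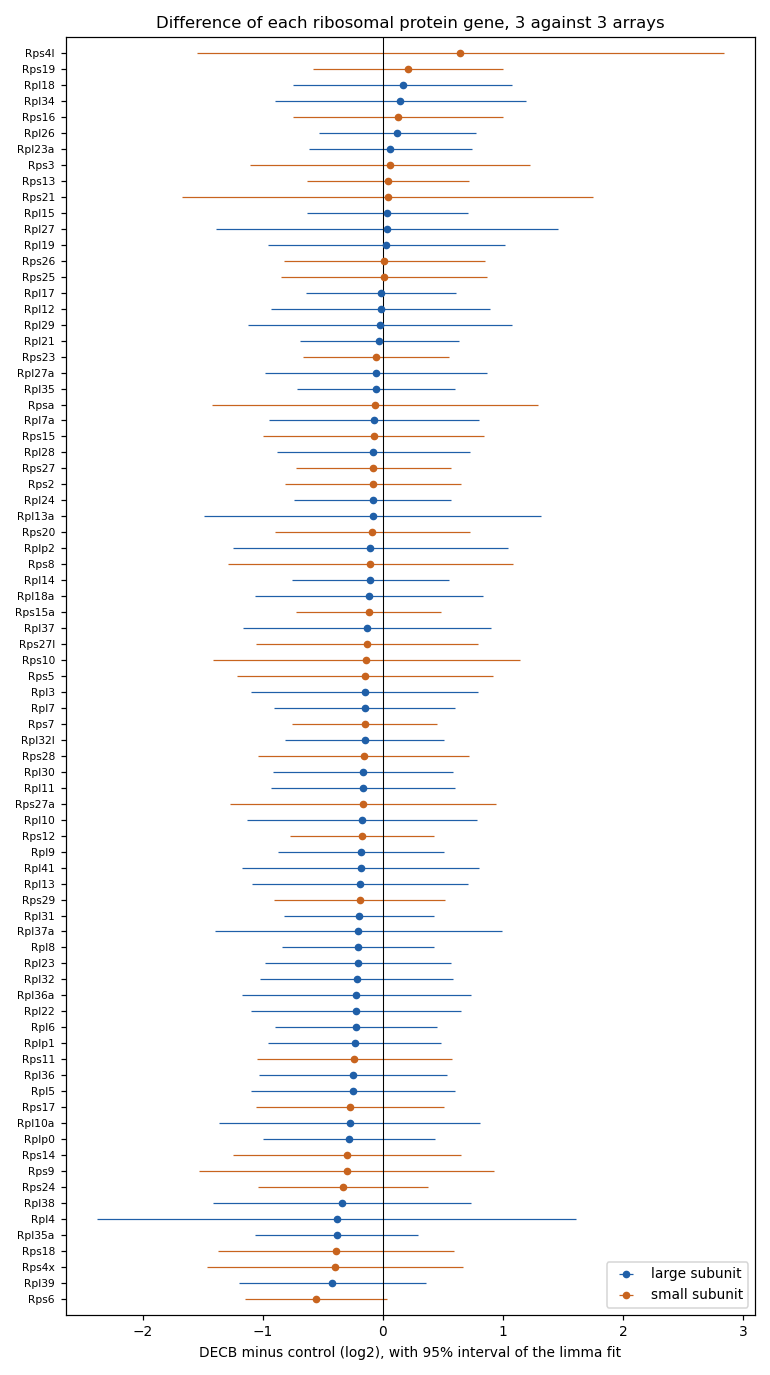
DECB minus control in log2 for the 79 members, large and small subunit marked by colour, with the 95% interval of the limma fit (3 against 3 arrays). The median is -0.15 here and 0.06 under quantile scaling, and 0 members passed the adjusted threshold.

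Arrays read at the same scan were alike in these genes whatever their group. The median difference between DECB 6 and control 1, without its sign, was 0.133 in log2 over members and 0.349 over all genes. DECB 4 differed from control 2 by 0.195 over members and from control 3 by 0.149, against 0.394 and 0.387 over all genes. Controls 2 and 3, of the same group and scan, differed by 0.134 over members and 0.160 over all genes. So DECB 6 and control 1 were about as close in ribosomal protein genes as 2 controls of the same scan, though under quantile scaling the values were 0.119 and 0.0815. With normexp background correction DECB 6 and control 1 differed by 0.155 over members and 0.157 over all genes, so the members were then no closer than genes in general. The 3 same-scan pairs of a DECB and a control array lay between 0.155 and 0.235 over members and between 0.157 and 0.296 over all genes in that setting. The 3 pairs across scans 2 and 3 differed by 0.174 to 0.315 over members, and the 8 pairs that set a scan 1 array against another by 0.586 to 0.82. Under normexp those 8 pairs lay between 0.348 and 0.504 over members and between 0.624 and 0.751 over all genes. The pairs share arrays, so they are a description and carry no test.

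**Figure D3:**
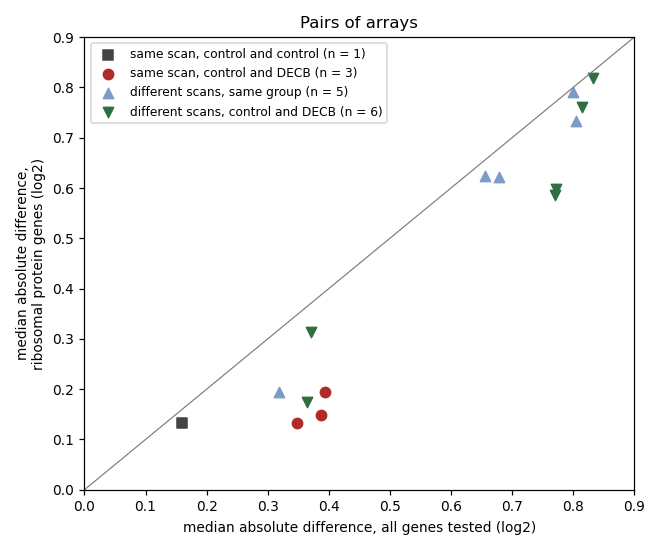
Median absolute log2 difference between 2 arrays over ribosomal protein genes (vertical axis) and over all tested genes (horizontal axis), 1 point a pair, with the line of equality. The same-scan pairs of a DECB and a control array sit at 0.133 to 0.195 over members and 0.349 to 0.394 over all genes, and at 0.155 to 0.235 and 0.157 to 0.296 with normexp.

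Among small subunit proteins, Rps6, the substrate of the S6 kinases downstream of mTOR, had the smallest p. Its brightest probe read 5.40, 5.52 and 5.52 in controls and 4.99, 4.85 and 4.93 in DECB. Every DECB array was below every control array. The difference was -0.56 (SE 0.25, 95% interval -1.15 to 0.04, limma adjusted p = 0.538), and it was -0.47 within scan 1, -0.53 within scan 2 and -0.36 under quantile scaling. With scan as a block it was -0.50 (limma adjusted p = 0.113). The other probes of Rps6 differed by -0.14 and -0.10, so the size rested on 1 probe of 3.

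In all, 3 members did not overlap between groups, each lower in DECB: Rpl31, Rps12 and Rps6 (3.80% of members, against 9.40% of all genes lower and 7.24% higher). Rps12, a protein of the small subunit's beak, read 6.66, 6.90 and 6.72 in controls and 6.61, 6.64 and 6.51 in DECB. The gap between its groups was narrow, and the difference was -0.17. Rpl31, at the rim of the exit tunnel, read 5.21, 5.23 and 5.31 in controls and 5.18, 4.80 and 5.17 in DECB, where DECB 5 alone was clearly apart. Of the 3, Rps6 alone was also without overlap under quantile scaling, where Rpl24 and Rps27 were higher without overlap. Those 2 were chosen for mention by that outcome.

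Other members with the smallest p below 0 were Rpl35a, Rpl39, Rps24, Rps18 and Rplp0, with differences of -0.39, -0.42, -0.33, -0.39 and -0.28. Rpl35a and Rps24, both affected in Diamond-Blackfan anaemia, showed different array patterns. Rpl35a read 5.10, 5.33 and 5.07 in controls and 5.09, 4.78 and 4.47 in DECB. Its DECB 6 array was the lowest and its DECB 4 array lay among the controls. Rps24 read 7.18, 6.78 and 6.60 in controls and 6.48, 6.30 and 6.79 in DECB. DECB 6 of Rps24 lay among the controls, as did DECB 6 of Rps18, which read 4.75, 4.07 and 3.96 in controls and 3.72, 3.31 and 4.58 in DECB. In limma these 5 genes had adjusted p from 0.806 to 0.921.

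The members with the smallest p above 0 were Rps4l, Rps19, Rpl26, Rpl18, Rps16 and Rpl34. Rps19, needed to mature the small subunit and also affected in Diamond-Blackfan anaemia, read 0.62, 1.00 and 0.76 in controls and 1.50, 0.97 and 0.52 in DECB. DECB 4 was the highest and DECB 6 the lowest, and the difference was 0.21 (SE 0.34). Rpl18, Rpl34, Rps16 and Rpl26 differed by 0.16, 0.15, 0.13 and 0.12. These sizes were below the SE of each gene.

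The stalk of the large subunit, which recruits elongation factors, is built on Rplp0 and carries Rplp1 and Rplp2. Rplp0 read 6.78, 6.23 and 6.32 in controls and 6.06, 5.96 and 6.48 in DECB. Rplp1 read 5.32, 4.97 and 4.95 in controls and 4.61, 4.68 and 5.25 in DECB, a difference of -0.23. Rplp2 read 8.27, 7.31 and 7.08 in controls and 7.31, 6.80 and 8.23 in DECB, a difference of -0.10. In all 3, control 1 was the highest control and DECB 6 the highest DECB array, and the groups overlapped. Under quantile scaling the stalk differences were -0.049 to -0.0052.

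Rpl5 and Rpl11 bind 5S rRNA and, when free, hold back Mdm2. Rpl5 read 3.20, 3.95 and 3.88 in controls and 3.76, 3.59 and 2.94 in DECB, with a difference of -0.25 (SE 0.36). Rpl11 read 6.84, 6.50 and 6.36 in controls and 6.27, 6.06 and 6.86 in DECB, with a difference of -0.17 (SE 0.32). On these probes scan 1 was the lowest pair of arrays for Rpl5 and the highest for Rpl11. The other 2 probes of Rpl11 were lower on scan 1, by -1.01 and -1.67 against the other arrays, so the scan pattern of Rpl11 depended on the probe. The sign for Rpl11 turned under quantile scaling, to 0.07.

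The exit tunnel and its rim, through which the new chain leaves and where folding and targeting factors dock, were represented by 9 members. Their median difference was -0.06 with 6 of 9 below 0, and 0.11 under quantile scaling. Rpl39, deep in the tunnel, read 6.20, 5.69 and 5.67 in controls and 5.50, 5.00 and 5.79 in DECB. DECB 6 alone of the DECB arrays lay above a control array. Rpl4, whose loop lines the tunnel, read 4.47, 6.66 and 6.59 in controls and 6.42, 6.23 and 3.92 in DECB. Scan 1 was low in both groups, and the range over arrays, 2.74, far exceeded the difference of -0.39 (SE 0.85). Rpl17, Rpl19, Rpl23a and Rpl35 differed by -0.01, 0.03, 0.06 and -0.06.

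At the small subunit's mRNA entry and decoding site, Rps2, Rps3, Rps15 and Rps23 differed by -0.08, 0.06, -0.08 and -0.06, and by 0.083 to 0.20 under quantile scaling. Rps23, at the decoding centre, was among the steadiest members, with a range of 0.32 over the 6 arrays. Rps7 and Rps15a, both small subunit proteins, had ranges of 0.32 and 0.33. The range of Rps15a is that of its brightest probe, and another of its probes ran from 4.21 to 5.24. The widest ranges were those of Rps4l (3.77), Rpl4 (2.74) and Rps21 (2.31). Rps21 read 3.28, 4.98 and 4.97 in controls and 5.36, 4.95 and 3.05 in DECB. Its level was low on both scan 1 arrays and the difference between groups was 0.04. Rpsa, a small subunit protein also known as a laminin receptor, differed by -0.07, and Rps27a, made as a fusion with ubiquitin, by -0.17.

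No difference between the subunits was seen beyond the spread between arrays. The median difference was -0.15 over 47 large subunit genes, 40 of them below 0, and -0.13 over 32 small subunit genes, 24 of them below 0. Under quantile scaling both turned, to 0.01 and 0.08. The per-array median of the large subunit minus that of the small was 0.068, -0.028 and -0.045 in controls and -0.13, -0.018 and 0.057 in DECB. These values overlapped, at -0.002 ± 0.061 in controls and -0.029 ± 0.092 in DECB (SD, n = 3). For a single value of 3 against 3 arrays the smallest p that an exact permutation test allows is 0.1, so none was run. The difference between the 2 subunit medians, -0.027, turned to 0.083 within scan 1 and was -0.097 within scan 2.

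Paralogues replace a parent protein in certain tissues. Rpl3l, a striated muscle form of Rpl3, was well above background on 1 array, DECB 5. Rpl10l and Rpl39l, known from testis, were so on 1 array (DECB 6, by 1 of 2 probes) and on 0 arrays. Their parents were bright on every array, with differences of -0.15 for Rpl3, -0.17 for Rpl10 and -0.42 for Rpl39. Rps27l, a p53-responsive paralogue, read 4.07, 4.94 and 4.60 in controls and 4.89, 4.49 and 3.82 in DECB. Its parent Rps27 read 6.90, 6.65 and 6.61 in controls and 6.61, 6.44 and 6.88 in DECB. The differences were -0.13 and -0.08. On these probes DECB 6 was the lowest DECB array of Rps27l and the highest of Rps27, though 1 of the 4 probes of Rps27 was lower on scan 1. Rps4x, the X-linked form, read 3.14, 4.11 and 4.11 in controls and 3.87, 3.67 and 2.63 in DECB.

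Rps4l, a transcribed pseudogene in RefSeq, was the least steady member. It read 0.24, -0.36 and 0.79 in controls and -1.39, 1.61 and 2.38 in DECB. The DECB arrays held both its lowest and its highest value, and the difference of 0.64 (SE 0.93) was 2.13 within scan 1 and -1.60 within scan 2. Ribosomal protein genes have many near-identical pseudogene copies in the mouse genome, and a probe can capture their transcripts, so a member's value may include them. This was not tested.

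Probes for the same gene disagreed more by scan than by group. Over 163 kept probes of members, the scan 1 arrays minus the other arrays ran from -4.45 to 1.55 in log2 with a median of 0.37, against 0.037 for all kept probes. The side of that median holds for the 75th percentile scaling without normexp. Of these probes 103 were higher on scan 1 (63.2%, against 51.3% of all kept probes), 25 were lower by over 1 and 18 were higher by over 1. Among 50 members with several kept probes, 27 had probes on both sides of 0 in that measure. In 22 of them (44%) the probes spanned over 1, against 41.1% of 3269 genes with several kept probes. The median span between probes of a gene was 0.929 for the scan measure and 0.186 for DECB minus control, against 0.816 and 0.308 over all genes with several kept probes.

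Rpl17, with 7 probes, shows the pattern. Its brightest probe over the 6 arrays read 4.89, 4.59 and 4.69 in controls and 4.54, 4.76 and 4.84 in DECB. Another of its probes read 0.59, 4.89 and 4.71 in controls and 4.63, 5.01 and 0.12 in DECB. The second probe was low on both scan 1 arrays and close to the first on the rest, and the difference between groups was -0.01 for the first and -0.14 for the second. Rps24 did likewise: 1 of its probes read 1.90, 5.41 and 5.26 in controls and 5.42, 4.97 and 0.86 in DECB.

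**Figure D4:**
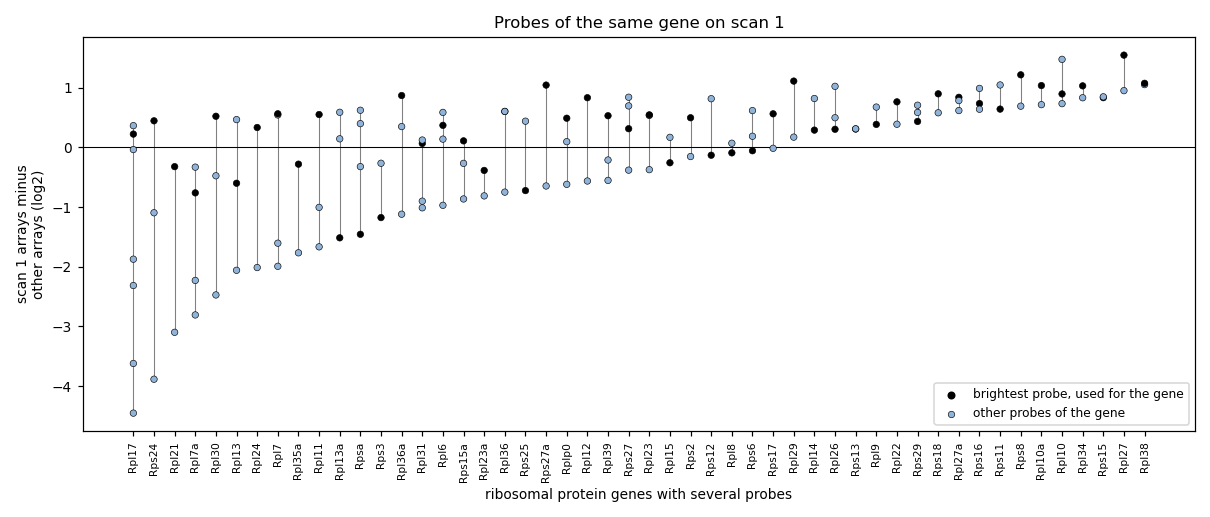
Scan 1 arrays minus the other arrays in log2 for each kept probe of the members with several kept probes, the brightest probe in black and the others in blue. The probes of a gene often lie on both sides of 0, as in 27 of 50 members, and the lowest, of Rpl17, is at -4.45.

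When each probe was tested on its own, limma called 0 of 163 member probes, against 0.0905% of all kept probes, and 4 were at an unadjusted p under 0.05, against 8.61% of all. With scan as a block it called 1 member probe, lower in DECB, against 2.03% of all probes lower and 1.40% higher. This probe belonged to Rpl22, a protein on the surface of the large subunit. It read 1.61, 1.25 and 1.25 in controls and 0.24, -0.37 and 0.36 in DECB, with all DECB arrays below all controls. Its difference was -1.30 (SE 0.32, 95% interval -2.04 to -0.55, limma adjusted p = 0.221), and -1.11 with scan as a block (limma adjusted p = 0.0445). The brightest Rpl22 probe read 6.65, 5.99 and 6.03 in controls and 5.61, 5.80 and 6.59 in DECB, and differed by -0.22. So the size of the difference rested on 1 of the gene's 2 probes. The brightest probe differed by -0.25 with scan as a block. Under normexp it was lower in DECB without overlap, as were 8.62% of all genes. Without normexp 9.40% of all genes were lower without overlap, and the share over all probes was not counted.

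For Rpl13a, a large subunit protein known also as a translational silencer, probes differed in sign. A probe read 2.32, 2.11 and 2.20 in controls and 3.08, 2.74 and 3.03 in DECB, a difference of 0.74 (limma adjusted p = 0.477 over probes). Another read 2.80, 2.33 and 2.31 in controls and 3.06, 3.03 and 3.74 in DECB, a difference of 0.80 (limma adjusted p = 0.562 over probes). On both, all DECB arrays were above all controls. Over all genes 7.24% were higher without overlap, and the share over all probes was not counted. The brightest Rpl13a probe read 5.11, 6.73 and 6.45 in controls and 6.51, 6.55 and 4.97 in DECB. Scan 1 was low in both groups on it, and the difference was -0.09. In all, 13 of 50 members with several kept probes had probes of opposite sign between groups, by over 0.5 in Rps18, Rpl31, Rpl13a, Rps15a and Rpsa. In Rpl31, Rps15a and Rpsa the highest difference came from a dim probe, well above background on 4, 3 and 3 arrays. The share of all genes with probes of opposite sign was not counted.

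**Figure D5:**
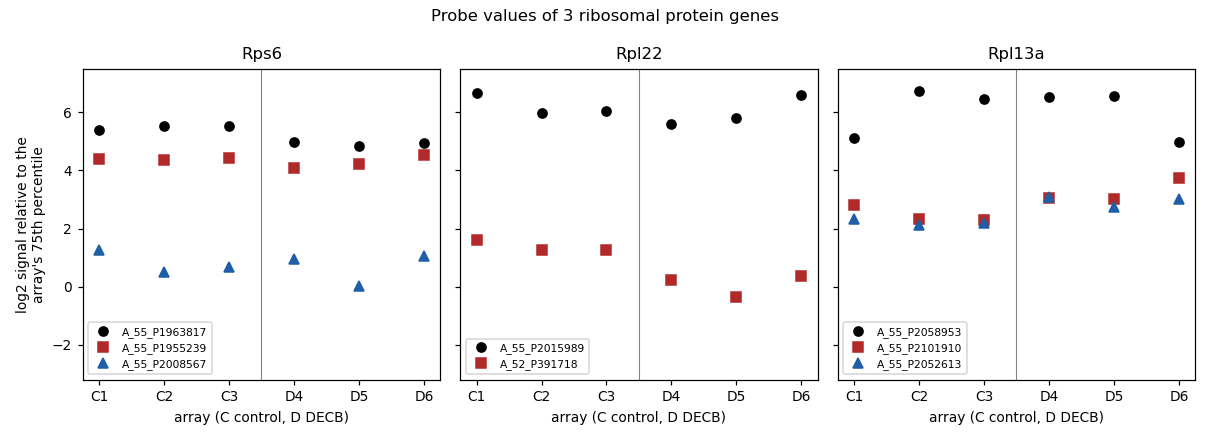
Log2 signal relative to each array's 75th percentile for every kept probe of Rps6, Rpl22 and Rpl13a on control 1 to 3 (C) and DECB 4 to 6 (D). A probe of Rps6, 1 of Rpl22 and 2 of Rpl13a separate the groups, and the other probes of the same genes overlap. Over all genes 9.40% were lower and 7.24% higher without overlap, and the share over all probes was not counted.

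Genes tied to ribosomal proteins were described in lists, and limma called 0 genes in any of the 4 lists, with or without scan as a block. At an unadjusted p under 0.05, without the block, the lists held 0 of 7, 1 of 17, 1 of 21 and 2 of 17 genes in the order given here, near the 10.0% of all genes. The 7 ribosomal proteins outside the symbol rule had a median difference of -0.17, 5 of 7 below 0, which turned to 0.02 under quantile scaling. Among them Fau, a ubiquitin-like fusion that yields a small subunit protein, differed by -0.50. Rack1, a signalling scaffold on the small subunit, differed by -0.17. Rpl7l1, a homologue of Rpl7, differed by 0.59 on a dim probe, well above background on 4 arrays, and by 0.19 with normexp. Of 17 other messages with a TOP tract, 14 were below 0, with a median of -0.22 that was -0.05 under quantile scaling. Hnrnpa1, an RNA-binding protein, differed by -0.79 (limma adjusted p = 0.414) and Npm1, a nucleolar chaperone, by -0.52 (limma adjusted p = 0.588).

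Late assembly and export factors of the ribosome were balanced about 0, with 10 of 21 below it and a median of 0.01. Bysl, a factor of small subunit assembly, differed by 0.70 (limma adjusted p = 0.486) and Tsr2, a chaperone of a small subunit protein, by 0.64 (limma adjusted p = 0.631). The probe of Tsr2 was dim, well above background on 5 arrays, and differed by 0.30 with normexp and 0.19 within scan 2. Of 17 measured regulators of ribosomal protein messages and of the free-protein arm, 13 were below 0, with a median of -0.29. Mtor, the kinase above the TOP messages, read -0.12, -0.26 and 0.06 in controls and -0.96, -0.85 and -0.77 in DECB. Its groups did not overlap, as in 9.40% of all genes lower in DECB. The difference was -0.76 (limma adjusted p = 0.376), and -0.38 with normexp. Eif4ebp3, a repressor of cap-dependent initiation, differed by -1.10 (limma adjusted p = 0.431).

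Mitochondrial ribosomal proteins, which serve a separate ribosome, were the nearest comparison group. The median difference over 77 of them was 0.13, with 23 below 0, where 64 of 79 cytosolic members were below 0. No test of this contrast between lists was made. Under quantile scaling the medians were 0.21 for the mitochondrial and 0.06 for the cytosolic genes. limma called 0 of the 77, with 3 at an unadjusted p under 0.05, and with scan as a block it called 3 higher: Mrps22 by 1.11, Mrps27 by 1.19 and Mrpl19 by 1.09 (limma adjusted p = 0.033, 0.032 and 0.0467). That share, 3 of 77, is near the 2.74% of all genes called higher in the blocked fit.

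The genes whose 6-array pattern was most like the median of the members were Socs7, Zbtb14, Ppp1ca, Atp6v1b1 and Trpc4ap, with Pearson's r of 0.996 to 0.997 over 6 arrays. A further count of genes shows how common such likeness was: 748 other genes (5.10%) had an r over 0.95. The 6 arrays share 3 scans, and the pattern of the members is higher on scan 1 than elsewhere at this scaling.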

How the data were processed

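The 6 deposited array files were written by Agilent Feature Extraction 11.0.1.1, per the file headers and per the submitters' processing notes. Their intensity values are processed Cy3 signals, from which, per the file headers, background and spatial trend were removed without scaling between arrays. The deposited series value table holds log2 values whose making is not stated in the labels or headers. All its columns share a median of 5.34 and its gene-centred values did not follow those of the arrays, so it was used in no comparison. Its scale, centring and direction stay unknown.

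Here each array's log2 processed signal was set relative to its 75th percentile over 43020 non-control spots. Outlier-marked spots (164 to 322 per array) and 1377 control spots were left out, and no spot was saturated. Spots of a probe were averaged. The filter kept 25418 of 39429 probes, those well above background on 3 or more arrays of either group, and a gene was its brightest kept probe. Names came from matching accessions without versions to RefSeq (GRCm38.p6): 28684 probes had a RefSeq accession, 27234 of these matched and 12195 probes in all had no name. The array design is on mm9, per the file headers, so no array coordinates are given. Sequences and motif counts come from RefSeq's promoter table, which held 61 of 82 members.

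Tests used limma 3.58.1 in R 4.3.3 (lmFit and eBayes, two-sided, Benjamini-Hochberg over all 14805 genes), checked on simulated data. Differences are DECB minus control in log2, with model SE. The number of arrays limits precision. Groups came from the sample titles. Alternatives were the background correction (normexp, offset 50, on median signals), quantile and median scaling, the filter, the probe rule, scan as a block, values within a scan, each array left out, and a fit over probes. The normexp signal and the probe fit were chosen after seeing the data. Genes were named by a rule: members by smallest p, by widest and narrowest range, by disagreeing probes and by role, and the smallest p of each related list. Fau, Rack1, Rpl7l1, Rpl24, Stab2, Hbb-bt, Hba-a1, Alas2 and Slc4a1 fall outside it and were named after their values were seen. The members and lists were chosen with earlier results of these data known. A result on 1 gene is not reported here.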

Additional observations from a re-analysis of the deposited data

How the results depend on the processing

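limma called 0 of 79 members in every gene-level fit run, while its count for DECB minus control, all genes, was 69, and it was 37 with quantile scaling, 112 with the median of detected probes, 988 with scan as a block, 2 with controls 2 and 3 averaged, 0 with no filter on dim probes, and 0 to 53 with an array left out. The members' median, -0.15, turned to 0.057 under quantile scaling and ran from -0.31 to 0.00054 with an array left out, the highest without control 1. The large subunit median turned to 0.014 and the small to 0.080 under quantile scaling, and with an array left out they ran from -0.34 to 0.00061 and from -0.21 to -0.020. Large minus small, -0.027, was 0.00063 with probes averaged and 0.083 within scan 1, and ran from -0.13 to 0.036 with an array left out. The mitochondrial median ran from -0.034 to 0.31 with an array left out. Ribosomal proteins outside the rule were at 0.015 under quantile scaling, -0.056 with probes averaged and -0.026 within scan 2. Late assembly factors were below 0 with normexp (-0.022), with the filter on all 6 arrays (-0.037), without scan 1 (-0.026) and within scan 2 (-0.13). Regulators ran from -0.67 to -0.11 with an array left out. The causes were not tested. Of 57 genes named for a group difference, 30 changed sign under at least 1 of 17 alternatives, and of the 57 only Mrps22, Mrps27, Mrpl19 and Stab2 were called in any of these gene-level fits, each with scan as a block. No paired analysis was possible because the sample titles share no number between groups and the source names give every sample the same one. The array's own gene names and the authors' value table were not run as alternatives. Scan 1, with signal near 4 times background, limits dim probes most.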
